A study of Mus musculus with 6 samples.

Results

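The NR4A and EGR factors are 6 genes, *Nr4a1*, *Nr4a2*, *Nr4a3*, *Egr1*, *Egr2* and *Egr3*, of the 32285 genes counted in CD8 T cells of mice bearing B16-OVA, a melanoma line that expresses ovalbumin. They were chosen by name, with earlier results of these data known. Their UMIs (unique molecular identifiers, each a barcode of 1 captured RNA molecule) were counted in 4 single-cell RNA libraries. Within tumors they were also counted in cells with 0 or with 1 or more UMIs of *Tcf7*, a transcription factor that marks the stem-like subset. In the CD8-IFNγRKO genotype, a Cre under the *Cd8a* promoter deleted a floxed *Ifngr1*, whose product binds IFNγ, while control mice carried the same Cre and an intact receptor gene. Both genotypes also carried a Rosa26 Tomato reporter, so that CD45+ CD3+ CD8+ Tomato+ cells could be sorted, 12 days after engraftment by the labels, from tumors and draining lymph nodes (LN). Each library pooled 3 mice and stood alone in its genotype and tissue. No test between groups was therefore possible, and every interval given here is a 95% interval of counting error only, with no replicate check. Tumors were digested with enzymes for 30 minutes at 37 °C and LN were not, so that tissue and digestion cannot be told apart.

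NR4A and EGR genes are immediate early genes: they are switched on within minutes of T cell receptor (TCR) engagement, before new protein is made, and their RNA is short-lived. NR4A proteins are orphan nuclear receptors, which bind DNA without a known hormone. NUR77, the product of *Nr4a1*, is widely used as a readout of TCR signal strength, and the 3 NR4A factors together are known to promote exhaustion and to restrain effector function in tumors. EGR proteins are zinc finger factors downstream of the MAPK pathway. *Egr1* is the most general of them, while *Egr2* and *Egr3* are known in T cells for limiting the response and for the state of anergy.

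RefSeq promoter windows of 4 of the 6 members were examined, 8 windows in all. Each held 250 bases before and 50 bases after a gene start (build GRCm38.p6). No window of *Egr1* or *Egr3* was among those examined, so whether these genes share the motifs below was not tested. The windows are shown because the 3 *Nr4a* windows share a pattern that the choice of members did not use. The window of *Nr4a1* is chr15:101266596-101266895 (plus strand, within the gene at chr15:101253902-101274795), that of *Nr4a2* chr2:57123954-57124253 (minus strand), that of *Nr4a3* chr4:48045055-48045354 (plus strand) and that of *Egr2* chr10:67537619-67537918 (plus strand). Each is written 5′ to 3′ on the strand of the gene. Capitals mark TGACG on either strand, the core of the cyclic AMP response element that CREB-family factors bind, and also the EGR site (GCGTGGGCG or GCGGGGGCG on either strand) in *Nr4a1* and the CArG box, the binding motif of SRF, in *Egr2*.
*Nr4a1*: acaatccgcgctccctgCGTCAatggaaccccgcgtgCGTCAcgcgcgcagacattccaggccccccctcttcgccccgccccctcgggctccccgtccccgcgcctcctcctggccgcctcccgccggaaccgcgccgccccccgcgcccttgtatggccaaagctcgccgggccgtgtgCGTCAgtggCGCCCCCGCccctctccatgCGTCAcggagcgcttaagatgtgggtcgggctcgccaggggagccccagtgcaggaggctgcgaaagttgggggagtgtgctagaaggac
*Nr4a2*: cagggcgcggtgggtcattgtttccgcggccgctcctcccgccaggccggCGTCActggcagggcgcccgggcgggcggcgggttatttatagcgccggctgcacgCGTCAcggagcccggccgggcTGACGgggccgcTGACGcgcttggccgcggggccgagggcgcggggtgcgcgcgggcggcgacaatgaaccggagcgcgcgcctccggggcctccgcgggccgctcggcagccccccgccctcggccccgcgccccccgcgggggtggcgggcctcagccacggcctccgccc
*Nr4a3*: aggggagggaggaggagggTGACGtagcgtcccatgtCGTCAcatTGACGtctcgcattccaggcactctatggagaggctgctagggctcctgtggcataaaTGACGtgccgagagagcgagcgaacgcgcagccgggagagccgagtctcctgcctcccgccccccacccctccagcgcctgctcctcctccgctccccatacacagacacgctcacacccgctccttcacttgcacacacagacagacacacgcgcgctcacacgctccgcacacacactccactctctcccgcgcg
*Egr2*: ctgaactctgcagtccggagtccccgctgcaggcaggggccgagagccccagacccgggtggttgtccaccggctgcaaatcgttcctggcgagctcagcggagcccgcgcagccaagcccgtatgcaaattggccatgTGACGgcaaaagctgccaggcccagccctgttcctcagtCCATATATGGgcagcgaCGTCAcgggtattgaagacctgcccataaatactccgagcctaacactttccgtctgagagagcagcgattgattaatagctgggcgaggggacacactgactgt
The windows of *Nr4a1*, *Nr4a2* and *Nr4a3* each held 4 such cores. Among all 32851 windows of this length, 20.8% held at least 1 core and 0.231% held 4 or more. The scan for cores was added after these windows had been seen, and the cut of 4 is the count that the *Nr4a* windows held. Bases G and C made up 72.3%, 81.7% and 64.7% of the windows of *Nr4a1*, *Nr4a2* and *Nr4a3*. The core holds a CG, and the background was not matched for base content. By gene, 23.0% of all 27025 genes held a core in a window and 3.93% an EGR site. Of 16 other immediate early genes with a window, 10 held a core and 5 an EGR site. How many of those held 4 or more cores was not counted. *Egr2* had 5 of the 8 windows, of which the first that held both motifs is printed. It held 2 cores and 1 CArG box (1.63% of all windows), as did the other two that overlap it, while 1 further window of *Egr2* held a CArG box and no core, and 1 held neither. The window of *Nr4a1* held 1 EGR site (3.47% of all windows), which began 60 bases before the start. None of these 4 windows held the full element TGACGTCA (1.79% of all windows), in which 2 cores overlap, or AAAGGTCA, the site that NR4A proteins bind as monomers (1.51%). These are letters in a window and not evidence of binding.

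After filters, 7103 control tumor, 8636 CD8-IFNγRKO tumor, 6641 control LN and 6731 CD8-IFNγRKO LN cells were kept, with a median of 6308, 9402.5, 4051 and 3863 UMIs per cell. *Ifngr1* reached 718 and 237 CPM (UMIs of a gene per 1000000 UMIs) in control and CD8-IFNγRKO tumors and 182 and 137 CPM in LN, lower in the deleted genotype in both tissues, although reads of 5′ ends may fall outside the deleted part. CD8 T cell markers were abundant throughout, with a summed level of 5358 to 8748 CPM over 7 genes. Of the other cell types, the 13 macrophage and dendritic cell markers summed to 100 CPM in control tumors, 39.9 in CD8-IFNγRKO tumors, 12.6 in control LN and 20.5 in CD8-IFNγRKO LN. The 4 B cell markers summed to between 0.44 and 22.2 CPM and the 4 melanoma markers to between 0.20 and 3.24 CPM. Between 318 and 374 of the kept barcodes of a library also occurred among the deposited barcodes of another one.

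The 3 NR4A genes were all at their highest in control tumors. *Nr4a1* stood at 262 CPM (interval 258 to 266) in control tumors, 124 in CD8-IFNγRKO tumors, 50.6 in control LN and 52.4 in CD8-IFNγRKO LN. The 2 LN values lay within each other's interval, and both tumor values lay above them. *Nr4a2*, the relative known from dopaminergic neurons, stood at 363 CPM (358 to 368) in control tumors, 183 in CD8-IFNγRKO tumors, 37.9 in control LN and 36.8 in CD8-IFNγRKO LN. *Nr4a3* stood at 81.2 CPM (78.9 to 83.5), 35.0, 19.4 and 19.9 in the same order. For all 3 genes the order was control tumor, then CD8-IFNγRKO tumor, then both LN, which did not differ beyond counting error.

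The EGR genes did not share that order. *Egr1* stood at 197 CPM in control tumors (194 to 201), 82.3 in CD8-IFNγRKO tumors (80.5 to 84.1), 96.0 in control LN (92.5 to 99.6) and 81.5 in CD8-IFNγRKO LN (78.3 to 84.9). Thus *Egr1* of receptor-deficient TILs was at the level of the LN libraries, below control LN and not distinct from CD8-IFNγRKO LN. *Egr2* was at its highest in LN, with 8.92 CPM in control LN (7.88 to 10.1) and 6.87 in CD8-IFNγRKO LN against 4.55 in control and 2.66 in CD8-IFNγRKO tumors. *Egr3* followed *Egr2*, with 4.44 and 4.26 CPM in control and CD8-IFNγRKO LN, 2.45 in control tumors and 1.05 in CD8-IFNγRKO tumors. These 2 genes rested on few molecules, between 99 and 271 UMIs per library. Fewer cells that transcribe a gene and less RNA per cell cannot be told apart in these pooled levels.

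**Figure D1:**
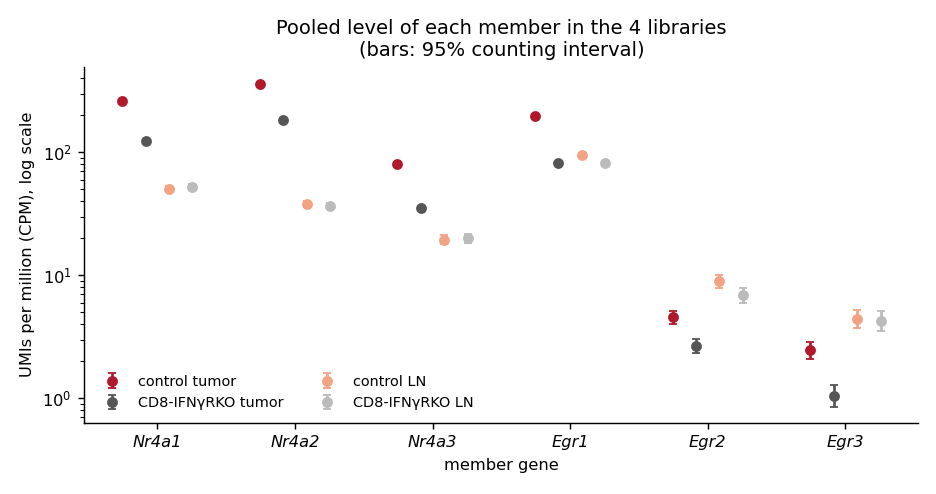
Pooled level of each NR4A and EGR gene in the 4 libraries, in CPM on a log axis, with exact 95% Poisson intervals of counting error as bars. *Nr4a1*, *Nr4a2*, *Nr4a3* and *Egr1* peak in control tumors, at 262, 363, 81.2 and 197 CPM, whereas *Egr2* and *Egr3* peak in control LN, at 8.92 and 4.44 CPM.

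Between tissues, control TILs exceeded control LN cells by 2.35 for *Nr4a1*, 3.23 for *Nr4a2*, 2.01 for *Nr4a3* and 1.03 for *Egr1* on the log2 scale with 1 CPM added, while *Egr2* was lower by -0.84 and *Egr3* by -0.66. A gene was counted as lower or higher here when its log2 ratio passed 0.5 in size and the 2 groups together held at least 100 UMIs of it. By that count 4 members were higher and 2 lower in control tumors, against 28.7% of all 10818 genes higher and 26.0% lower. In CD8-IFNγRKO mice the same 3 NR4A genes were higher in tumors, by 1.23, 2.28 and 0.78, *Egr1* differed by 0.01 (-0.05 to 0.08), and *Egr2* and *Egr3* were lower by -1.10 and -1.36. There 3 members were higher and 2 lower, against 30.6% and 27.3% of 11187 genes. Over the alternative settings the *Egr1* ratio between tissues in CD8-IFNγRKO mice ranged from -0.25 to 1.35. The lower calls of *Egr2* and *Egr3* were lost with 10 CPM added or when UMIs per cell were compared without scaling by depth. LN held mostly cells with a *Tcf7* UMI, 85.1% of control and 84.8% of CD8-IFNγRKO cells, while tumors held 5.24% and 9.69%.

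Within tumors, the members were lower in CD8-IFNγRKO than in control cells. *Egr1* had the lowest log2 ratio of the 6, -1.25 (-1.29 to -1.21), from 7734 and 11733 UMIs. *Nr4a3* followed at -1.19 (-1.25 to -1.13), *Nr4a1* at -1.07 (-1.10 to -1.03) and *Nr4a2* at -0.99 (-1.01 to -0.96). In UMIs per cell, without scaling by depth, *Nr4a1* fell from 2.19 to 1.35. *Egr2* and *Egr3* differed less and with wider intervals, -0.60 (-0.80 to -0.41) and -0.75 (-0.97 to -0.52), and the 1 CPM added understates ratios at their low level. All 6 members were thus counted as lower, against 5.59% of 11249 genes lower and 7.79% higher. With 10 CPM added, *Egr2* and *Egr3* were at -0.20 and -0.17 and 4 members were counted as lower, and in UMIs per cell without scaling *Egr2* was at -0.35. The median log2 ratio was -1.03 over the 6 members and 0.02 over all genes tested.

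In LN the members were close between genotypes. None of the 6 members passed 0.5 in either direction, against 0.781% of 9985 genes lower and 0.421% higher. *Nr4a1*, *Nr4a2* and *Nr4a3* had log2 ratios of 0.05 (-0.05 to 0.15), -0.04 (-0.16 to 0.08) and 0.03 (-0.13 to 0.20). *Egr1* and *Egr2* were modestly lower in CD8-IFNγRKO LN, at -0.23 (-0.31 to -0.15) and -0.33 (-0.57 to -0.10), and *Egr3* was at -0.05 (-0.34 to 0.25). Few genes had a lower LN ratio than these first 2, 4.13% of all tested for *Egr1* and 1.98% for *Egr2*. For the other members that share lay between 26.0% and 58.4%. The difference between tissues in the genotype ratio was not tested.

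**Figure D2:**
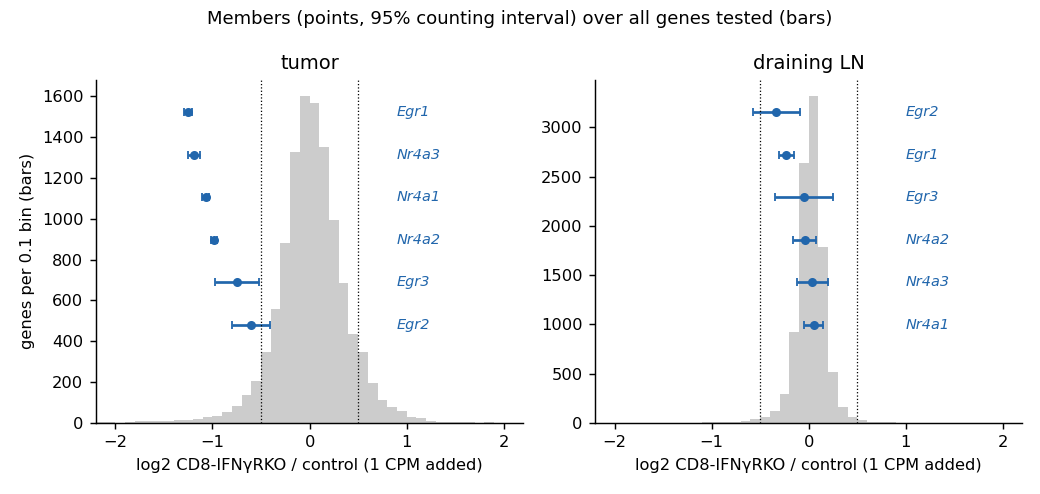
Log2 ratio of CD8-IFNγRKO over control (1 CPM added) of the 6 members in tumors and LN, as points with 95% counting intervals, over a histogram of all genes with at least 100 UMIs, with dotted lines at -0.5 and 0.5. In tumors the members lie between -1.25 and -0.60, and in LN between -0.33 and 0.05.

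Other properties of the tumor libraries moved with genotype. The 7 CD8 T cell markers were lower in CD8-IFNγRKO tumors, at a summed 6607 against 8748 CPM, with log2 ratios from -0.51 for *Cd8a* to -0.15 for *Trac*, and their part in the members' ratios was not tested. Of 8 heat shock genes, 7 were higher in CD8-IFNγRKO tumors, with a summed level of 8028 against 5112 CPM, and 5 of 8 were higher in CD8-IFNγRKO LN. A UMI of *Hspa1a* or *Hspa1b*, the inducible heat shock proteins, was present in 37.1% of control and 73.5% of CD8-IFNγRKO TILs. In cells without such a UMI, *Nr4a1*, *Nr4a2*, *Nr4a3* and *Egr1* differed by -1.14, -0.95, -1.06 and -1.29. There *Egr2* was at -0.30 (-0.63 to 0.04) and *Egr3* at -0.56 (-0.94 to -0.16). In cells with one, *Nr4a1*, *Nr4a2*, *Nr4a3* and *Egr1* differed by -1.08, -0.98, -1.22 and -1.28. *Egr2* and *Egr3* were at -0.76 and -0.77 in those cells. This split was chosen after the data had been seen, and the part of heat shock in the members' ratios was not tested. The macrophage and dendritic cell markers were lower in CD8-IFNγRKO tumors for 5 of the 8 with enough UMIs. Without cells that held 3 or more of these markers, the 6 members ranged from -1.25 for *Egr1* to -0.60 for *Egr2*. The 6 cycling genes were all higher in CD8-IFNγRKO tumors (median 0.63).

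Depth per cell also differed, and the members' share of a cell's RNA fell with it. Over control TILs with under 3000, 3000 to 6000, 6000 to 10000, 10000 to 15000 and 15000 or more UMIs, the summed level of the 6 members was 1275, 1135, 936, 852 and 798 CPM. In CD8-IFNγRKO TILs it was 624, 623, 514, 412 and 371 CPM. Every bin of control cells lay above every bin of CD8-IFNγRKO cells. Within the bins, the log2 ratio of *Nr4a2* ranged from -1.01 to -0.82. *Nr4a1* ranged from -1.20 in the shallowest to -0.69 in the second bin, *Nr4a3* from -1.23 to -0.97 and *Egr1* from -1.28 to -0.87. *Egr2* ranged from -1.10 to -0.53 in 4 of the bins and was at 0.093 (-0.44 to 0.62) in cells with 3000 to 6000 UMIs. In a window of 4000 to 8000 UMIs, *Nr4a1* was at -0.47, under the limit, and *Nr4a2*, *Nr4a3* and *Egr1* at -0.76, -0.87 and -0.87.

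**Figure D3:**
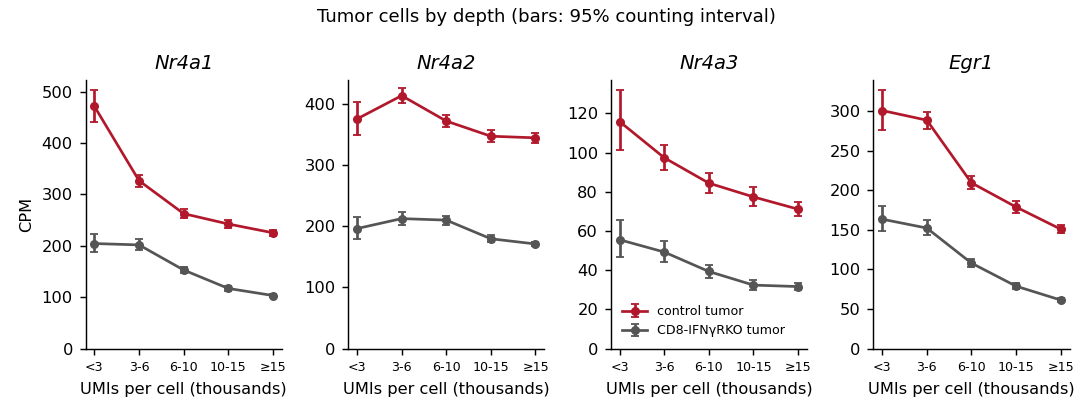
Level of *Nr4a1*, *Nr4a2*, *Nr4a3* and *Egr1* in tumor cells by UMIs per cell (5 bins), in CPM with 95% Poisson intervals, for control and CD8-IFNγRKO. From the shallowest to the deepest bin *Nr4a1* goes from 471 to 225 CPM in control and from 204 to 103 CPM in CD8-IFNγRKO cells, and the control point lies above the CD8-IFNγRKO point in every bin.

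To compare how many cells held a member, each cell was thinned to 1600 UMIs, which left out 701 control and 278 CD8-IFNγRKO tumor cells and 237 and 41 LN cells as too shallow. At that depth 66.6% of control TILs (65.4 to 67.7) and 45.3% of CD8-IFNγRKO TILs (44.2 to 46.3) held a UMI of at least 1 member. In LN the shares were 22.7% and 23.0%. *Nr4a2* was found in 39.5% of control and 23.6% of CD8-IFNγRKO TILs, *Nr4a1* in 27.6% and 16.6%, *Egr1* in 24.0% and 12.6% and *Nr4a3* in 11.9% and 5.70%. Without thinning, a member was found in 90.0% and 84.4% of TILs and in 45.1% and 43.3% of LN cells. No cell type that should lack the members was in the libraries, so genes of other cell types served as a background: *C1qa*, *Lyz2*, *Cd79a* and *Pmel* were each found in at most 0.156% of thinned cells. In thinned cells, *Egr3* of CD8-IFNγRKO TILs, at 0.072%, was at that background and cannot be read as expression. Without thinning *Egr3* was found in 0.845% of these TILs, against 0.417% for *Pmel*, the highest of the background genes in that library.

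In every library, cells with an NR4A UMI held an EGR UMI more often than cells without one. Among control TILs with an NR4A UMI, 26.8% also held an EGR UMI, against 21.7% of those without. The shares were 15.3% and 11.6% in CD8-IFNγRKO TILs, 18.2% and 11.0% in control LN and 17.5% and 10.7% in CD8-IFNγRKO LN. *Nr4a1* was found in 34.6% of control TILs with *Nr4a2* and in 23.0% of those without. At 1600 UMIs, 83 control and 19 CD8-IFNγRKO TILs held 4 or more of the 6 members, and 7 and 5 LN cells did. In control LN *Egr3* was found in 7 of 88 cells with *Egr2* (7.95%) and in 0.43% of the others, and *Egr2* in 4.75% of cells with *Egr1* against 0.96%. In control tumors *Egr3* was found in 1 of 41 cells with *Egr2* (2.44%, 0.062 to 12.9) and in 0.456% of the others. Thinning sets each cell to the same number of UMIs, but cells of 1 library share their source, and these shares are descriptions.

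Within tumors, cells with a *Tcf7* UMI numbered 372 in control and 837 in CD8-IFNγRKO mice. A cell of low depth can miss *Tcf7*, and the cells with a UMI had a median of 4562.5 and 4521 UMIs against 6394 and 9901 in the cells without. In control tumors *Egr1* was lower in cells with *Tcf7*, 116 against 201 CPM (-0.79, -0.96 to -0.63), while *Nr4a1* was higher at 337 against 258 CPM (0.38). *Nr4a2* was at -0.26 and *Nr4a3* at -0.02. *Egr2*, from 20 UMIs, was at 0.62 (-0.01 to 1.20) and *Egr3*, from 3 UMIs, at -0.75 (-1.54 to 0.28). With the latter 2 genes, 2 members were counted as lower and 1 as higher, against 10.2% and 8.03% of 10162 genes, so *Egr1* was the 1 gene whose call rested on more than 20 UMIs.

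In CD8-IFNγRKO tumors *Egr1* went the other way. It was higher in cells with *Tcf7*, 135 against 78.8 CPM (0.77, 0.66 to 0.88). *Nr4a1* was higher as well, 199 against 119 CPM (0.73, 0.64 to 0.82), and *Nr4a3* was at 0.36 (0.18 to 0.55). *Nr4a2* was again the exception, at -0.28 (-0.38 to -0.18), and *Egr2* was at 0.49 (-0.03 to 1.00). Of the 5 members with enough UMIs, 2 were higher and none lower, against 10.8% and 11.1% of 10686 genes. In UMIs per cell without scaling, these 2 higher calls were lost. Among cells with 4000 to 8000 UMIs *Egr1* was at 0.48, under the limit. All CD8-IFNγRKO TILs with under 3000 and with 3000 to 6000 UMIs stood at 164 and 152 CPM of *Egr1*, above the 135 CPM of the *Tcf7* cells. For *Nr4a1* these 2 bins stood at 204 and 202 CPM, beside 199 CPM in the *Tcf7* cells. In control TILs the same bins stood at 471 and 327 CPM of *Nr4a1*, beside 337 CPM in the *Tcf7* cells. For *Egr1* these control bins stood at 301 and 289 CPM, well above the 116 CPM of the control *Tcf7* cells. The part of depth in these ratios was not tested.

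**Figure D4:**
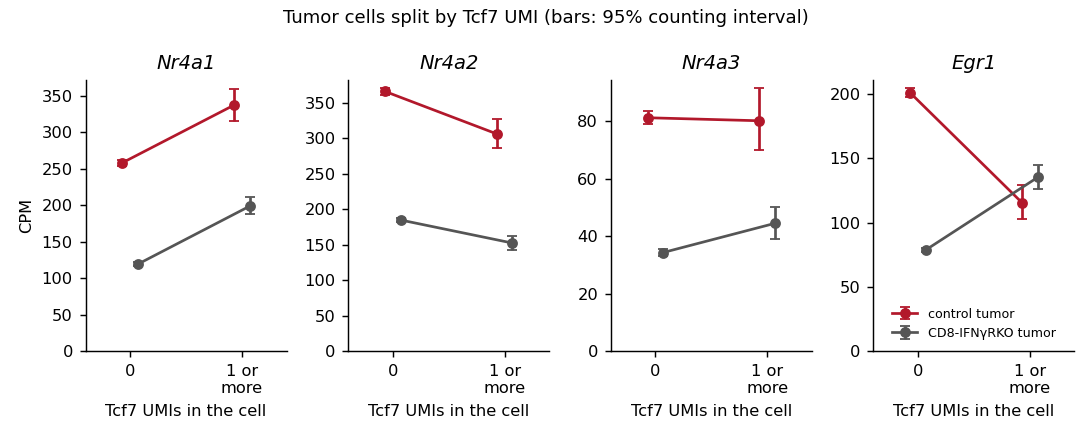
Level of *Nr4a1*, *Nr4a2*, *Nr4a3* and *Egr1* (CPM, 95% Poisson intervals) in tumor cells without and with a *Tcf7* UMI in both genotypes, with a line joining the 2 classes of a library. *Egr1* is lower with *Tcf7* in control (116 against 201 CPM) and higher with *Tcf7* in CD8-IFNγRKO tumors (135 against 78.8 CPM).

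Comparing genotypes inside the *Tcf7* classes, cells without a *Tcf7* UMI repeated the difference of all TILs. There *Egr1* was at -1.34, *Nr4a3* at -1.22, *Nr4a1* at -1.11, *Nr4a2* at -0.98, *Egr3* at -0.77 and *Egr2* at -0.60, 6 of 6 lower against 5.91% of 11147 genes lower and 8.03% higher. In cells with a *Tcf7* UMI the 3 NR4A genes were lower in CD8-IFNγRKO, *Nr4a2* with 152 against 306 CPM (interval of the log2 ratio -1.14 to -0.86), *Nr4a3* by -0.83 and *Nr4a1* by -0.76. *Egr1* was not lower, with 135 against 116 CPM (0.22, 0.03 to 0.42), from 775 and 316 UMIs. Of the 4 members with enough UMIs, 3 were counted as lower and none as higher, against 3.06% and 5.32% of 7130 genes. The size of the *Egr1* ratio changed with the setting: it was 0.80 with cells thinned, 1.12 with the *Tcf7* classes also made after thinning, 0.73 with the mean of each cell's CPM and 0.51 without cells with a *Mki67* or *Top2a* UMI, and *Egr1* counted as higher in each of these.

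The share of *Tcf7* cells with an *Egr1* UMI differed less between genotypes than the share of the other cells. Without thinning it was 38.4% of control and 37.4% of CD8-IFNγRKO cells with *Tcf7*, against 55.5% and 40.6% of the cells without. No single cell carried the level: the highest cell held 14 of the 316 control UMIs and 17 of the 775 CD8-IFNγRKO UMIs.

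Cells with *Tcf7* were mixed, since about as many lacked as held a UMI of *Pdcd1*, the gene of the receptor PD-1 that marks antigen-experienced cells in tumors. This further split was chosen after the data had been seen. Among *Tcf7* cells with *Pdcd1* (191 control and 379 CD8-IFNγRKO cells), *Nr4a1* was at 357 and 165 CPM (-1.11), and *Egr1* at 124 and 108 CPM (-0.19, -0.42 to 0.04). Among *Tcf7* cells without *Pdcd1* (181 and 458 cells), *Nr4a1* was at 279 and 265 CPM (-0.08, -0.32 to 0.17) and *Egr1* at 92.1 and 188 CPM (1.02, 0.64 to 1.42). *Nr4a2* and *Nr4a3* were lower in CD8-IFNγRKO in both, by -0.95 and -0.81 with *Pdcd1* and by -0.72 and -0.86 without. The higher *Egr1* thus lay in the cells without a *Pdcd1* UMI, and their share of the *Tcf7* class differed between genotypes. Those cells were shallower, with a median of 3584 UMIs in control and 3832.5 in CD8-IFNγRKO. *Tcf7* cells with *Pdcd1* had a median of 8274 and 7983 UMIs. A cell of low depth can miss *Pdcd1*, and the part of depth in this split was not tested. Summed over the 6 members, *Tcf7* cells without *Pdcd1* stood at 591 and 582 CPM, and those with *Pdcd1* at 935 and 512 CPM.

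TCR sequences allowed the members to be followed by clone. A clone was a set of cells whose alpha and beta chains matched in V gene, J gene and CDR3 nucleotides, and 60.3% of control and 68.7% of CD8-IFNγRKO TILs could be placed in 1. No clone occurred in both libraries. The largest clone held 25.8% of the placed control cells and 24.6% of the placed CD8-IFNγRKO cells. In clones of 10 or more cells the members summed to 931 CPM (920 to 942) in control and 411 (406 to 416) in CD8-IFNγRKO. In clones seen in 1 cell only, the sums were 601 (552 to 653) and 588 (552 to 625), within each other's interval. The median depth of these single-cell clones was 4041 UMIs in control and 3997.5 in CD8-IFNγRKO. In clones of 10 or more cells it was 6323 and 10503 UMIs per cell. The part of depth in this contrast was not tested.

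Among these single-cell clones *Nr4a2* was lower in CD8-IFNγRKO (-0.81, -1.14 to -0.48), *Nr4a1* was at -0.17 (-0.40 to 0.07), *Nr4a3* at -0.01 (-0.48 to 0.48) and *Egr1* was higher at 0.88 (0.54 to 1.22). The composition of these cells differed: 63.2% of the control and 78.3% of the CD8-IFNγRKO cells held a *Tcf7* UMI, and 30.8% and 13.7% a *Pdcd1* UMI. In clones of 10 or more cells *Nr4a1*, *Nr4a2*, *Nr4a3* and *Egr1* were at -1.15, -1.01, -1.34 and -1.47. Some single-cell clones held a *Pdcd1* UMI (56 control and 50 CD8-IFNγRKO cells). Among them *Nr4a1* was at 0.36 (-0.04 to 0.75), *Nr4a3* at 1.12 (0.277 to 2.002) and *Egr1* at 0.70 (0.14 to 1.28). *Nr4a2* was lower there, at -0.74 (-1.24 to -0.25). Among cells with *Pdcd1* in clones of 10 or more, *Nr4a1*, *Nr4a3* and *Egr1* were at -1.15, -1.34 and -1.46, and *Nr4a2* was lower too. Beyond this split, the part of cell composition in this contrast was not tested.

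The expanded clones varied within a library. Among the 10 control clones of 50 or more cells the members summed to a lowest value of 475, a median of 910 and a highest value of 1119 CPM. The 21 CD8-IFNγRKO clones of that size had a lowest value of 285, a median of 390 and a highest value of 598 CPM. Of the CD8-IFNγRKO clones, 17 lay below every control clone. For *Nr4a2* the 2 sets did not overlap, at 268 to 433 CPM in control and 92.6 to 210 CPM in CD8-IFNγRKO clones. For *Nr4a3* 19 of the 21 lay below every control clone, whereas for *Nr4a1* and *Egr1* 6 did. Clones of 1 library share a pool of mice and a sort and are not replicates of the genotype. Depth differed between clones. Those of 50 or more cells had a median of 4525 to 7114 UMIs per cell in control and 3211 to 14776.5 in CD8-IFNγRKO. The part of depth in the clone ranges was not tested. How many of all genes separate the clones of the 2 libraries in this way was not counted. These counts therefore do not show whether the members stand out. With clones of 20 or more cells, 10 of 25 CD8-IFNγRKO clones lay below all 22 control clones for *Nr4a2* and 9 for the sum.

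**Figure D5:**
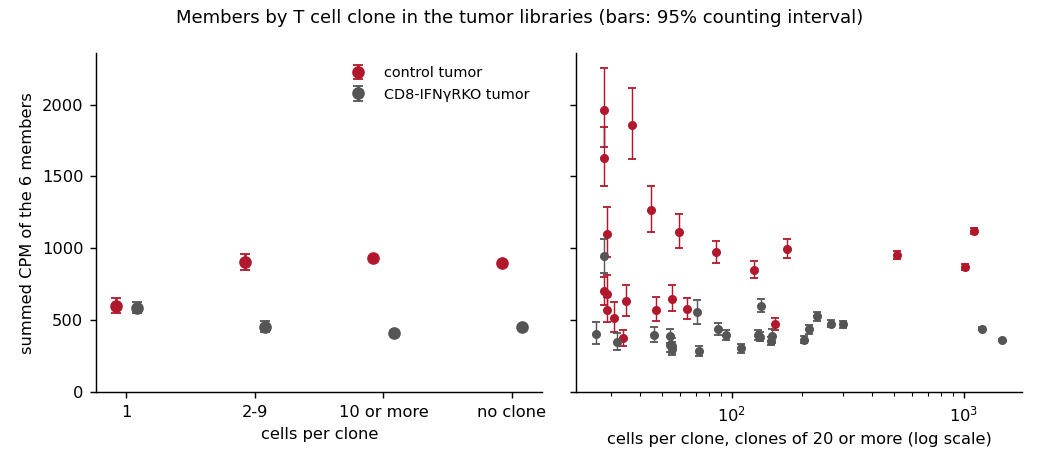
Summed CPM of the 6 members with 95% counting intervals in tumor cells of both genotypes, by number of cells per clone on the left and for each clone of 20 or more cells on the right, with clone size on a log axis. The genotypes meet in clones of 1 cell, at 601 and 588 CPM, and the clones of 20 or more cells lie between 374 and 1965 CPM in control and between 285 and 944 CPM in CD8-IFNγRKO tumors.

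The genes that work with the members, or carry the signal to them, moved little with genotype in tumors. Among 5 tested partners and relatives, which include the EGR corepressors *Nab1* (-0.11) and *Nab2* (0.01), none passed 0.5 (median -0.03). Of 24 genes of the calcium, NFAT, MAPK, SRF and CREB routes, 2 were lower in CD8-IFNγRKO tumors, *Nfatc1* (-0.61), a calcineurin-driven factor, and *Crem* (-0.53), a cyclic AMP-responsive factor (median -0.07). In LN neither of these lists held a gene past the limit.

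Other immediate early genes split. Of 18, 6 were lower in CD8-IFNγRKO tumors, among them the AP-1 genes *Fosb* (-0.92) and *Junb* (-0.71), and *Btg2* (-0.83) and *Ier2* (-0.60), while *Klf2*, a factor of quiescent cells, was higher (0.50). *Fos* and *Jun* were at 0.35 and 0.38 and passed neither limit. The median of the list was -0.22. Of 26 genes induced by the TCR, 10 were lower, among them *Nrn1* (-1.57), *Cd200* (-1.20) and the MAPK regulators *Spry2* (-1.18) and *Dusp5* (-0.72), and 4 were higher, *Xcl1* (1.63), *Izumo1r* (1.26), *Myc* (1.14) and *Cd69* (0.58). Of 10 exhaustion genes, 3 were lower, the receptors *Lag3* (-0.81), *Tigit* (-0.67) and *Havcr2* (-0.53). The list ratios stand beside the same 5.59% lower and 7.79% higher of all genes. In LN, where 0.781% of all genes were lower, 5 of 22 tested TCR-induced genes were lower in CD8-IFNγRKO and none higher, *Irf8* (-1.20), *Ccl4* (-0.75), *Nrn1* (-0.61), *Tnf* (-0.60) and *Izumo1r* (-0.52). *Ier3* (-0.70), 1 of the 18 immediate early genes, and *Lag3* (-0.82), 1 of 5 tested exhaustion genes, were lower there too.

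The immediate early list turned with the *Tcf7* class. In cells with a *Tcf7* UMI, 6 of 18 were higher in CD8-IFNγRKO, *Fos* (1.69), *Klf2* (0.91), *Jun* (0.86), *Ier3* (0.73), *Zfp36* (0.65) and *Dusp1* (0.53), and none lower (median 0.21). In cells without one, 6 were lower and none higher (median -0.28). By sign, *Egr1* thus lay on the same side as *Fos* and *Jun* in *Tcf7* cells, and *Nr4a1*, *Nr4a2* and *Nr4a3* on the other side. At 0.22 (0.03 to 0.42), however, *Egr1* did not pass 0.5. In *Tcf7* cells with a *Pdcd1* UMI it was at -0.19 (-0.42 to 0.04).

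The genes most like the members from cell to cell were found by correlating, over thinned cells, each of 6472 genes in tumors and 6504 in LN with the members' summed UMIs (Pearson's r of log2 of 1 plus UMIs, genes found in at least 2% of cells of both genotypes), both being counts of the same cells and library, and by taking the 8 genes with the highest of the lower value in the 2 genotypes. In tumors the closest was *Junb* (r = 0.286 in control and 0.199 in CD8-IFNγRKO cells), followed by *Ccl4* (0.211 and 0.161), a chemokine, and by *Fos*, *Ier2*, *Tnfaip3*, *Fosb*, *Dusp1* and *Nfkbid*. In LN these were *Zfp36* (0.122 and 0.105), *Nfkbid* (0.169 and 0.0896), *Cd69*, *Dusp2*, *Fosb*, *Srgn*, *Zfp36l1* and *Fos*. These are weak correlations of sparse counts, given as a description over 6402 and 8358 tumor cells and 6404 and 6690 LN cells.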

How the data were processed

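Sorted CD8 T cells of 3 pooled mice per genotype and tissue gave 4 libraries of 5′ transcript ends, and the tumor libraries also TCR contigs. The authors mapped reads with Cell Ranger 6.0.0 (mm10). Their deposited values are raw UMI counts for each of 32285 genes in each barcode called a cell, without normalization, and UMI counts per TCR contig. A barcode was kept if it had between 200 and 6000 genes, a mitochondrial share of 3% or less, no gene over 20% of its UMIs and a UMI of *Cd2*, of *Cd8a* and of *Cd8b1*. Of 11369 control tumor, 12214 CD8-IFNγRKO tumor, 12979 control LN and 11298 CD8-IFNγRKO LN barcodes, 7103, 8636, 6641 and 6731 were kept. Removal of a macrophage cluster was not rebuilt, no doublet caller was run and no cell was removed as a doublet.

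Levels are pooled CPM with exact Poisson intervals. Ratios are log2 with 1 CPM added and have exact conditional binomial intervals, and shares have Clopper-Pearson intervals. All cover counting error only, at 95%, and narrow with the number of UMIs. Ratios were computed over all genes with at least 100 UMIs in the 2 groups, TCR segments left out, and a gene counted as lower or higher past 0.5 in size. Because each group was 1 library, no test and no p-value was computed. A clone used the alpha and the beta chain with most UMIs. Alternatives changed the pseudocount, the cells, the total, the scaling, the depth, the minimum of UMIs, the *Tcf7* class and the clone size. Python 3.11.15 was used with pandas 2.3.3, numpy 2.4.6, scipy 1.17.1 and, for plots, matplotlib 3.10.9, and the ratios were tested on simulated data with known answers. Named genes are the 6 members, the genes of lists written from general knowledge of T cells, the cell type markers and the 8 genes most like the members in each tissue. Members and lists were chosen with earlier results of these data known. Promoter windows come from RefSeq (GRCm38.p6).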

Additional observations from a re-analysis of the deposited data

Results flagged for a closer look

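The *Egr1* genotype and *Tcf7* effects had opposite signs between groups, and these differences were not tested, since each group was 1 library. In cells with a *Tcf7* UMI against those without, *Egr1* had a log2 ratio of -0.79 in control tumors and 0.77 in CD8-IFNγRKO tumors. In CD8-IFNγRKO against control cells, it had a log2 ratio of 0.22 with a *Tcf7* UMI and -1.34 without. Over the 13 alternatives set at the start, the first pair ranged from -1.06 to -0.69 and from 0.05 to 1.29, and the ratio of 0.22 from 0.12 to 1.12. Split by *Pdcd1*, a choice made after the data had been seen, it was -0.19 in *Tcf7* cells with and 1.02 in those without a *Pdcd1* UMI.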

How the results depend on the processing

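Of the alternative settings for counts, clones and shares of cells with any member, 201 gave values within the margin of the reported one and 34 did not. Those for members' log2 ratios were counted together with the unthinned share of cells with each single member. Of these, 406 stayed within the counting interval, 243 left it, and 5 log2 ratios changed sign from a ratio of 0.5 or more in size. Sign changes of smaller ratios were not counted as such. The ratio of *Nr4a3* by *Tcf7* in CD8-IFNγRKO tumors ranged from -0.35 to 0.46. That of *Egr1* between tissues in CD8-IFNγRKO mice ranged from -0.25 to 1.35. The 6 lower members in CD8-IFNγRKO tumors fell to 3 in cells with 4000 to 8000 UMIs. The 2 lower members in tumors than LN fell to 0 in both genotypes with 10 CPM added or UMIs per cell unscaled, and to 1 with cells thinned or in the depth window. In the *Tcf7* comparison of control tumors, the 2 lower members fell to 1 with 10 CPM added or 2 or more *Tcf7* UMIs, and the 1 higher member to 0 with 10 CPM added, thinning (with either class), UMIs per cell or the depth window. In that of CD8-IFNγRKO tumors, the 0 lower members became 1 with the mean of each cell's CPM, UMIs per cell, the depth window, without cells with *Mki67* or *Top2a*, or with *Tcf7* classes made after thinning, and the 2 higher members became 0 in UMIs per cell and 1 in the depth window. In *Tcf7* cells between genotypes, the 0 higher members became 1 with thinning under either class, the mean of each cell's CPM, without *Mki67* or *Top2a*, or without a *Pdcd1* UMI. The ratio of *Egr2* between genotypes changed sign to 0.041 in the depth window, to 0.093 in cells with 3000 to 6000 UMIs and to 0.027 in the depth window without *Tcf7*. That of *Egr3* changed sign to 0.030 between tissues in control mice in UMIs per cell and to 0.092 by *Tcf7* in control tumors with thinning. Unthinned shares with a member were 90.0%, 84.4%, 45.1% and 43.3%. With clones of 20 or more cells, CD8-IFNγRKO clones below every control clone numbered 9 for the sum and 10 for *Nr4a2*. The cause of these changes was not tested. Splits by depth bin, *Hspa1a* or *Hspa1b* and *Pdcd1* were chosen after seeing the data. No paired analysis was possible because each group held 1 library. *Egr2* and *Egr3* rested on 99 to 271 UMIs per library.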

Other observations

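Immediate early genes outside the NR4A and EGR families had another order between tissues than the NR4A genes. In control tumors against control LN, 9 of 18 were lower and 3 higher. *Fos*, *Jun* and *Klf2* were lower by -2.65, -2.15 and -3.64, and *Ier3* and *Atf3* higher by 2.70 and 2.39, on the same log2 scale with 1 CPM added. In CD8-IFNγRKO mice 10 were lower and 3 higher. Of the 26 TCR-induced genes, 20 were higher in control tumors and 3 lower, *Cd69* (-2.41), *Izumo1r* (-2.43) and *Myc* (-2.26). In CD8-IFNγRKO tumors 18 were higher and 3 lower, among the first *Ccl3* (7.43) and *Tnfrsf9* (6.36).

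Within LN the members' summed level differed little by *Tcf7*, with 215 CPM in 5653 control cells with a UMI and 232 CPM in 988 cells without, and 199 and 223 CPM in CD8-IFNγRKO LN.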
